A study of Mus musculus with 47 samples.

Results

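The Mediator complex subunits were taken from the expression tables of a cuprizone study of the mouse brain. Cuprizone (CPZ) is a copper chelator given in the chow that kills mature oligodendrocytes and strips myelin, and myelin returns after the diet is withdrawn. Members were all gene symbols made of Med and a number, with or without a final l, together with Cdk8, Cdk19 and Ccnc, which gave 33 genes of 21034 in the chronic tables and the same 33 of 23393 in the acute table. Of these, 7 encode the kinase module and 26 encode the other subunits (7 head, 9 middle, 1 scaffold, 5 tail and 4 head-tail junction). All 33 passed the filters on low values in both kinds of table.

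Mediator bridges DNA-bound transcription factors and RNA polymerase II at promoters and enhancers. Its head and middle modules contact the polymerase, the tail module takes up signals from activators, and Med14 is the backbone that joins them. The kinase module (Med12, Med13, Cdk8 and cyclin C, or their paralogues Med12l, Med13l and Cdk19) docks reversibly on this core, and while docked it keeps the polymerase from binding. MED12, MED13, MED13L and CDK8 are best known in the nervous system for neurodevelopmental syndromes in people carrying mutations in these genes.

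All mice were wild-type C57BL/6 by the labels (C57BL/6J in the methods). Groups held both sexes except the 12+12 week groups and the acute naive group, which held females only. In the chronic paradigm, mice received CPZ for 12 weeks (12 wk) or for 12 weeks followed by 4, 8 or 12 weeks of normal chow (12+4, 12+8 and 12+12 wk), and naive mice of 8 months were the controls. The chronic tables held 12 corpus callosum libraries (2, 2, 3 and 2 CPZ libraries in time order and 3 naive), 13 hippocampus libraries (3, 3, 2 and 2, and 3 naive) and 15 cortex libraries (3, 3, 3 and 2, and 4 naive). The acute paradigm held corpus callosum libraries of 3 weeks of CPZ (n = 3), of 5 weeks of CPZ and 1 week of recovery (5+1 wk, n = 3) and of 1 naive mouse of 2 months. By the feeding schedule of the methods the 12+12 wk mice were about as old as the naive chronic mice, and the mice of the earlier time points were younger, so age and CPZ cannot be told apart at those. The labels do not say which regions came from one mouse. Each library was bulk RNA of dissected tissue, in which fewer cells of a type and less RNA per cell cannot be told apart.

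The deposited values are log2 and carry no counts, so sequencing depth is unknown. Chronic values are centred per gene and have no absolute level: a value of 0 is about that gene's average over the 3 regions, and only differences within a gene can be read. Acute values are normalized log2 levels. A difference below is on the log2 scale, and "called" means an adjusted p below 0.05 by limma with Benjamini-Hochberg adjustment over all genes tested (17054 in the chronic tables). In 8 of the 13 hippocampus libraries the sex-linked genes lay about midway between male and female (0.426 to 0.52 on a scale on which 0 and 1 are the 2 sexes), while all 12 corpus callosum and 15 cortex libraries were as labelled. Values in the corpus callosum and hippocampus tables carried the decimals of an average of 2 values, and those of the cortex did not. Results that rest on the hippocampus are therefore given with and without the 8 libraries where subunits are called or counted. Without them 5 hippocampus libraries remain and some groups hold a single library, so a missing call there says little. Defining markers of oligodendrocytes, neurons, astrocytes and microglia were all present in the acute corpus callosum, where each of 15, 12, 7 and 8 genes had a mean of at least 5 on the log2 scale. So did all 7 markers of striatal neurons and all 6 of choroid plexus and ependyma, so presence alone does not show a clean dissection.

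In the chronically treated corpus callosum the subunits split. Med12 rose by the most, the tail subunits Med23, Med24, Med15 and Med25 and the paralogue Med12l rose less, and 12 core subunits fell, led by Med30, Med6 and Med31. For the mean of the 4 CPZ groups against naive, 6 of 33 subunits were higher, where 13.7% of all genes tested were, and 12 of 33 were lower, where 14.5% of all genes were. The kinase module accounted for 2 of the 6 higher calls and none of the 12 lower ones. Of the 26 other subunits, 4 were higher, 12 were lower and 10 were not called. The median difference was 0.15 over the 7 kinase module subunits and -0.19 over the 26 others, against 0.00 over all genes. In the hippocampus and cortex no subunit was called in either direction.

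**Figure D1:**
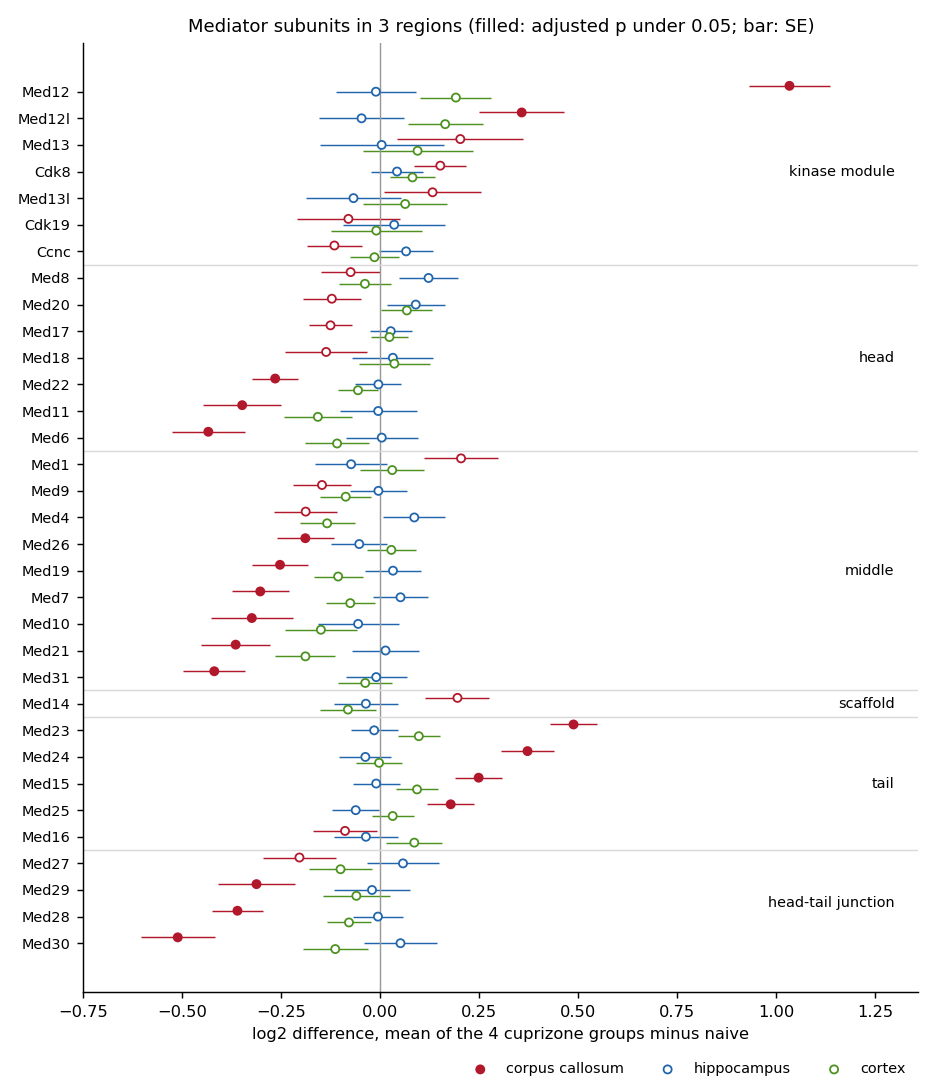
Log2 difference between the mean of the 4 CPZ groups and naive (x axis) for each of the 33 subunits, ordered by module, in corpus callosum (red), hippocampus (blue) and cortex (green). Bars are standard errors and filled points passed an adjusted p of 0.05. The 18 filled points are all from the corpus callosum, with Med12 alone near 1.03, and the hippocampus and cortex points lie between -0.19 and 0.19.

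Med12 lies on the X chromosome (GRCm38, chrX:101274030-101297465, + strand). Its protein binds cyclin C and Cdk8 and switches on the kinase. The 12 wk corpus callosum libraries read 0.61 and 0.50, the 12+4 wk libraries 0.52 and 0.63, the 12+8 wk libraries 0.50, 0.39 and 0.60, and the 12+12 wk libraries 0.66 and 0.59, against -0.17, -0.74 and -0.50 in the naive libraries. All 9 CPZ libraries lay above all 3 naive ones, and the naive libraries spread more widely than the CPZ libraries did. The difference was 1.03 ± 0.10 (SE), with an adjusted p of 1.2e-07 by limma. With sex as a covariate it was again 1.03. Of its exons, up to 279 bases are shared with the predicted gene Gm21986 on the same strand, whose reads the counting could have placed on either gene.

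In the hippocampus Med12 ranged over -0.47, -0.20 and -0.09 (lowest, median and highest of 10 CPZ libraries), against -0.25, -0.23 and -0.22 in the 3 naive libraries. In the cortex it ranged over -0.52, -0.02 and 0.30 in 11 CPZ libraries, and the 4 naive libraries read -0.34, -0.19, 0.09 and -0.41. The groups overlapped in both regions. The Med12 effect in the corpus callosum exceeded that in the hippocampus by 1.04 ± 0.14 (limma adjusted p = 7.34e-05) and that in the cortex by 0.84 ± 0.14 (limma adjusted p = 5.66e-04). Without the 8 hippocampus libraries of mixed sex-linked genes the first of these was 0.98 ± 0.20 (limma adjusted p = 0.0389).

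**Figure D2:**
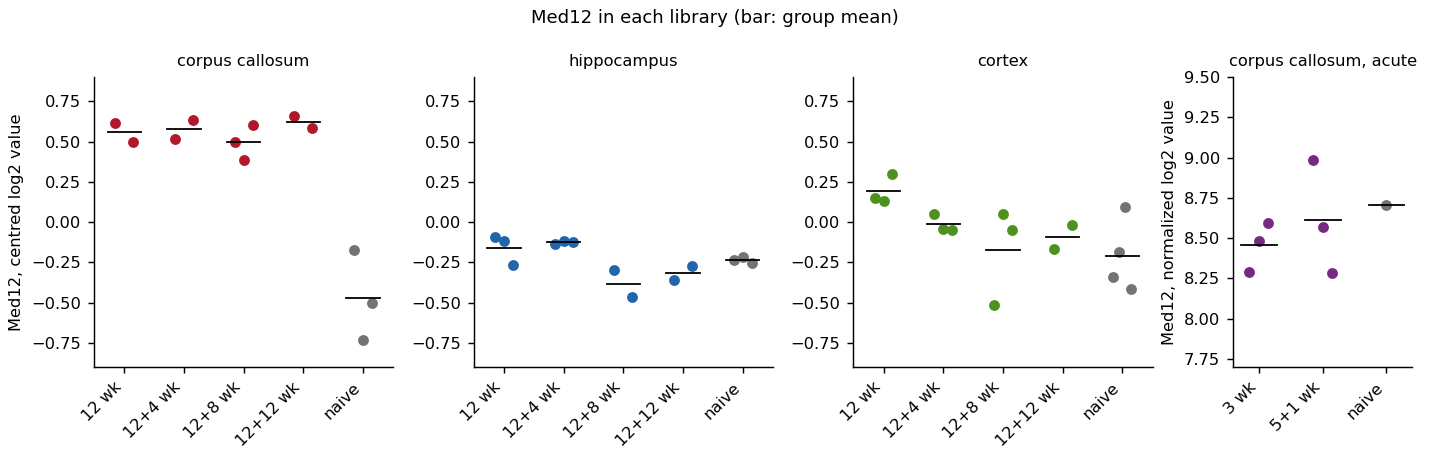
Med12 in each library, by treatment group, in the chronic corpus callosum, hippocampus and cortex (centred log2 value) and in the acute corpus callosum (normalized log2 value). Points are libraries, grey points are naive and bars are group means. The 9 chronically treated corpus callosum libraries sit between 0.39 and 0.66, and the 3 naive ones between -0.74 and -0.17.

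Promoter sequences, from 250 bases before to 50 bases after the RefSeq start, were found for 28 of the 33 subunits (GRCm38.p6). They are shown for Med12, the subunit with the largest rise, and for Med6 and Med31, which fell at every chronic time point in the corpus callosum and had a sequence. Capitals mark a CCAAT box (CCAAT), GC box (GGGCGG), ETS motif (CCGGAAG) or YY1 motif (AAGATGG) on either strand. They were also searched for a TATA box (TATAAA) and the NRF1 core (TGCGCA).
Med12 (chrX:101273841-101274140, + strand): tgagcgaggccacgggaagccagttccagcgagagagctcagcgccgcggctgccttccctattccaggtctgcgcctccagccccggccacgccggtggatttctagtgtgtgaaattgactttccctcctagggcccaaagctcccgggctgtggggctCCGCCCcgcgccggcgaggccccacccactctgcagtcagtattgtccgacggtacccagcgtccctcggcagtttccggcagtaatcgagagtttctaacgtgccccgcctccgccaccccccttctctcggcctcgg
Med6 (chr12:81594959-81595258, - strand): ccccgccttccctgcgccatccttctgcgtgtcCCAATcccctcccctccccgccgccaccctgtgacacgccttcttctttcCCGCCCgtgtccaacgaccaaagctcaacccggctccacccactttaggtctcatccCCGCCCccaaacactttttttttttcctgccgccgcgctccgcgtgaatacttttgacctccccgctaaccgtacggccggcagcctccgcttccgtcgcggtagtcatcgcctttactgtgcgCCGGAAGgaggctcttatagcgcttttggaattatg
Med31 (chr11:72215543-72215842, - strand): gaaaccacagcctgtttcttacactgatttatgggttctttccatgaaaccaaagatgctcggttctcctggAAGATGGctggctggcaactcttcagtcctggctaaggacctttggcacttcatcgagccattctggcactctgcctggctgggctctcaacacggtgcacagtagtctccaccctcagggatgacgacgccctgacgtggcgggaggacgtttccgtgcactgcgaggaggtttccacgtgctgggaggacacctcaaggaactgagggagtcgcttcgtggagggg

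The GC box was found in 18 of the 28 subunit promoters (64.3%) and in 35.9% of 27025 promoters of the same length, and in 6 of 6 kinase module promoters. The CCAAT box was found in 39.3% of subunit promoters and in 37.9% of all promoters. It was in 6 of 11 promoters of subunits that were lower in the treated corpus callosum, in 0 of 4 that were higher and in 5 of 13 that were not called. The ETS motif was in 7 of 28 subunit promoters (25.0%) and in 9.12% of all promoters. The NRF1 core was also in 7 of 28 (25.0%) and in 8.06% of all, the YY1 motif in 4 of 28 (14.3%) and in 6.48% of all, and the TATA box in 3 of 28 (10.7%) and in 14.2% of all. The subunit promoters were richer in GC than promoters at large, with medians of 57.8% and 52.7%, which bears on any motif made of G and C.

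Med12l, the Med12 paralogue on chromosome 3, read 0.04 and 0.02 at 12 wk, 0.00 and 0.09 at 12+4 wk, 0.04, -0.11 and 0.02 at 12+8 wk, and -0.10 and -0.04 at 12+12 wk, against -0.36, -0.34 and -0.39 in naive corpus callosum. The 9 CPZ libraries lay above the 3 naive ones, and the naive libraries lay close together. The difference was 0.36 ± 0.11 (limma adjusted p = 0.0136), and without naive replicate 3 it was 0.34 and missed the threshold (limma adjusted p = 0.0583). The Med12l gene spans 312858 bases and shares up to 1948 exon bases with Igsf10 on the opposite strand. It also encloses the microglial receptor gene P2ry13. Strand use in the counting is not settled by the sources, and in the same comparison Igsf10 differed by 0.04 (limma adjusted p = 0.884) and P2ry13 by -0.27 (limma adjusted p = 0.0484).

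Med13 and Med13l, the large proteins that tether the kinase module to the core, were not called in the corpus callosum. Med13 read -0.20, -0.04 and 0.18 (lowest, median and highest of 9 CPZ libraries), against -0.32, -0.08 and -0.32 in the naive libraries, a difference of 0.20 ± 0.16 (limma adjusted p = 0.377). Med13l differed by 0.13 ± 0.12 (limma adjusted p = 0.465). Both pairs of groups overlapped.

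The 2 kinases did not pass the test either. Cdk8 differed by 0.15 ± 0.07 (limma adjusted p = 0.0845), with -0.14, 0.02 and 0.15 (lowest, median and highest) in CPZ libraries and -0.18, -0.17 and -0.10 in naive ones. Its paralogue Cdk19 differed by -0.08 ± 0.13 (limma adjusted p = 0.710). Ccnc, the cyclin that activates either kinase, differed by -0.12 ± 0.07 (limma adjusted p = 0.233). Thus within each paralogue pair of the corpus callosum, Med12 and Med12l were both called, and neither member of Med13 and Med13l nor of Cdk8 and Cdk19 was.

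**Figure D3:**
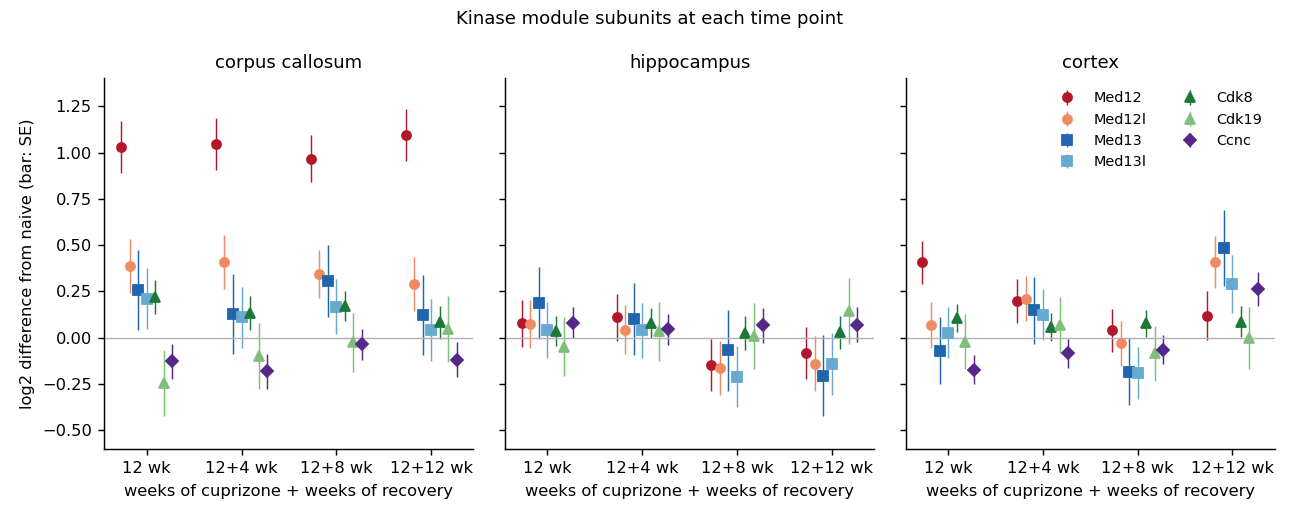
Log2 difference from naive (y axis) of the 7 kinase module subunits at each chronic time point (x axis), in corpus callosum, hippocampus and cortex. Bars are standard errors. In the corpus callosum Med12 lies between 0.97 and 1.09 at all 4 time points, and in cortex its highest point is 0.41 at 12 wk.

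Among the other subunits, 4 of the 5 tail subunits were higher in the corpus callosum. Med23, a tail subunit that receives signals from growth factor pathways, read 0.35 and 0.20 at 12 wk, 0.21 and 0.18 at 12+4 wk, 0.10, 0.10 and 0.25 at 12+8 wk, and 0.10 and -0.01 at 12+12 wk, against -0.25, -0.26 and -0.45 in naive. All 9 CPZ libraries were above all 3 naive ones. The difference was 0.49 ± 0.06 (limma adjusted p = 2.63e-06). Med24, Med15, a target of lipid-metabolism activators, and Med25 differed by 0.37 ± 0.07, 0.25 ± 0.06 and 0.18 ± 0.06 (limma adjusted p = 1.76e-04, 0.00275 and 0.0258). The fifth tail subunit, Med16, differed by -0.09 and was not called. The Med25 call was lost without naive replicate 1 (0.16, limma adjusted p = 0.0997) or 2 (0.13, limma adjusted p = 0.192), and the Med15 call without naive replicate 1 (0.17, limma adjusted p = 0.0582). The scaffold Med14 (0.20) and Med1 (0.20), the large middle subunit that docks nuclear receptors, were not called.

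The lower calls came from the head, middle and junction subunits. Of 7 head subunits, 3 fell (Med6, Med11 and Med22), of 9 middle subunits 6 fell (Med31, Med21, Med10, Med7, Med19 and Med26), and of 4 junction subunits 3 fell (Med30, Med28 and Med29). Med30, the junction subunit on chromosome 15, read -0.10 and -0.07 at 12 wk, -0.15 and -0.27 at 12+4 wk, -0.13, -0.04 and -0.14 at 12+8 wk, and -0.05 and -0.30 at 12+12 wk, against 0.42, 0.38 and 0.30 in naive. The difference was -0.51 ± 0.09 (limma adjusted p = 2.11e-04). Every CPZ library lay below every naive library.

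Med6, a head subunit near the polymerase, ranged over -0.35, -0.23 and -0.14 (lowest, median and highest) in the 9 CPZ libraries and read 0.17, 0.21 and 0.24 in the naive libraries, a difference of -0.43 ± 0.09 (limma adjusted p = 9.24e-04). Med31, a small subunit at the tip of the middle module, ranged over -0.18, -0.03 and 0.01 in CPZ libraries, against 0.38, 0.34 and 0.37 in naive ones, a difference of -0.42 ± 0.08 (limma adjusted p = 2.8e-04). Med28 ranged over -0.24, -0.18 and -0.14 in CPZ libraries, against 0.15, 0.18 and 0.22 in naive ones, a difference of -0.36 ± 0.06 (limma adjusted p = 1.76e-04). In each of these genes the groups were apart. Med21, which forms the flexible hinge of the middle module with Med7, differed by -0.37 ± 0.09 and Med7 by -0.30 ± 0.07. The remaining lower calls lay between -0.35 (Med11) and -0.19 (Med26). The Med26 call was lost without any one of 10 of the 12 corpus callosum libraries, with values of -0.22 to -0.13. Single naive libraries also decided 4 of the other calls. Med10 missed the threshold without naive replicate 1 (-0.31, limma adjusted p = 0.0708) or 3 (-0.29), and Med29 without naive replicate 2 (-0.28, limma adjusted p = 0.0751) or 3 (-0.32, limma adjusted p = 0.0504). Med11 missed it without naive replicate 1 (-0.32, limma adjusted p = 0.0516) and Med19 without naive replicate 2 (-0.23, limma adjusted p = 0.0522).

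Over all subunits, the 9 CPZ libraries of the corpus callosum lay above the 3 naive ones in 5 genes, where 10.4% of all genes did, and below them in 10, where 10.7% of all genes did. The 5 were Med12, Med12l, Med15, Med23 and Med24. The 10 were the lower calls other than Med10 and Med26.

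The calls were spread over the whole time course. At 12 wk, 13 of 33 subunits were called in either direction (18.7% of all genes were), at 12+4 wk 11 (13.7%), at 12+8 wk 12 (18.9%) and at 12+12 wk 12 (16.2%), all against the same naive libraries. At each of the 4 time points Med12, Med23 and Med24 were higher, and Med6, Med22, Med28, Med30 and Med31 were lower. The Med12 difference was 1.03 at 12 wk, 1.05 at 12+4 wk, 0.97 at 12+8 wk and 1.09 at 12+12 wk. The Med23 difference was 0.60, 0.52, 0.47 and 0.37 in that order. Head subunit Med20 was called at 12 wk only (-0.34). No subunit was called by limma between recovery and 12 wk: the share of all genes called was 0.809% at 12+4 wk, 0.756% at 12+8 wk and 4.22% at 12+12 wk, and 0, 1 and 3 subunits had an unadjusted p below 0.05.

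The difference in effect between regions was tested directly. Set against the hippocampus, the corpus callosum effect was higher for 4 subunits (7.09% of all genes) and lower for 7 (6.25%). The 4 were Med12, Med23 (0.50 ± 0.08), Med24 (0.41 ± 0.09) and Med15 (0.26 ± 0.09), and Med30 was the lowest of the 7 (-0.56 ± 0.13, limma adjusted p = 0.00631). Without the 8 hippocampus libraries of mixed sex-linked genes, which leaves no library at 12+8 wk there, only Med12 and Med23 were called and no subunit was lower, while the share of all genes called also fell, to 0.223% higher and 0.0117% lower. Set against the cortex, the corpus callosum effect was higher for 3 subunits (5.38% of all genes), Med12, Med23 and Med24, and lower for 3 (2.98%), Med28, Med30 and Med31. The 3 lower calls against the cortex were 0 to 5 in number as single libraries were left out. Of 17054 genes, 256 to 994 were lower in those fits. No subunit was called between hippocampus and cortex, where limma called 0% of all genes and 1 subunit had an unadjusted p below 0.05. Without the 8 libraries the count there was again 0, with 0% of all genes called.

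In the hippocampus the mean effect ran from -0.07 to 0.12 over the 33 subunits, with medians of 0.00 in the kinase module and 0.00 in the others. Limma called 0% of all genes there, and no subunit had an unadjusted p below 0.05. The count of subunits called was 0 with and without the 8 libraries of mixed sex-linked genes. With only 5 hippocampus libraries left, the count without the 8 says little. In the cortex the mean effect ran from -0.19 (Med21) to 0.19 (Med12), with medians of 0.08 in the kinase module and -0.06 in the others. Limma called 0.0704% of all genes and no subunit, and 2 subunits had an unadjusted p below 0.05. One cortex library, 12+8 wk replicate 1, lay below every other cortex library in 6 of 33 subunits, Med12 (-0.52), Med12l (-0.45), Med13 (-0.53), Med13l (-0.35), Med1 and Med14, and above every other one in 17. The 6 had a median transcript length of 8660 bases and the 17 of 1675 bases. Over all genes its values had a Spearman rho of -0.31 with length, against 0.08 to 0.52 in the other 14 cortex libraries. Cdk8, Cdk19 and Ccnc lay within the range of the others. Without it, Med12l (0.23 ± 0.06, limma adjusted p = 0.0228) was higher and Med21 (-0.23 ± 0.07, limma adjusted p = 0.0421) was lower in the cortex, and the share of all genes called was then 1.34% higher and 3.55% lower.

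One recovery comparison in the cortex gave calls. Ccnc read 0.34 and 0.18 at 12+12 wk, against -0.15, -0.23 and -0.15 at 12 wk, a difference of 0.44 ± 0.10 (limma adjusted p = 0.0122). Med14, the X-linked scaffold, read 0.56 and 0.43 at 12+12 wk, against 0.17, 0.05 and 0.04 at 12 wk, a difference of 0.41 ± 0.11 (limma adjusted p = 0.0308). Higher calls made up 2.52% of all genes in this comparison. The 12+12 wk cortex libraries were both from females. With sex as a covariate the differences were 0.44 and 0.40, with limma adjusted p-values of 0.0135 and 0.0431. After the length and GC correction no subunit was called, while 1.52% of all genes were higher. Without the hippocampus libraries of mixed sex-linked genes, which enter only the estimate of spread, 1 subunit was higher (0.469% of all genes). This comparison had a Spearman rho with GC content of -0.43 over all genes and -0.63 over the subunits.

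The mean of the 7 kinase module subunits minus the mean of the 26 others, taken in each library as a description, was 0.08 to 0.20 in the 9 CPZ libraries of the corpus callosum and -0.26 to -0.19 in the 3 naive ones. In the hippocampus it was -0.31 to -0.08 in CPZ libraries and -0.21 to -0.16 in naive ones, and in the cortex -0.42 to 0.54 in CPZ libraries and -0.00 to 0.27 in naive ones. The groups were apart in the corpus callosum and overlapped in the other regions.

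Transcript length moved with these differences. The longest protein-coding transcript had a median of 6940 bases in the kinase module (2973 to 11006) and of 2057 bases (814 to 8024) in the other subunits. In the corpus callosum comparison the 6 higher subunits had a median length of 4396 bases, and the 12 lower ones of 1221 bases. Over the 33 subunits length and difference had a Spearman rho of 0.75, and over 16564 genes with a known length one of 0.44. In the cortex the same values were 0.69 and 0.27, and in the hippocampus -0.39 and -0.12 (-0.09 and -0.05 without the libraries of mixed sex-linked genes). All genes of a comparison share the same libraries and are not independent, so these are descriptions. Among all genes, the median corpus callosum difference was -0.15 for transcripts of up to 1000 bases and 0.26 for those above 8000 bases, and 32.8% of the shortest and 2.06% of the longest were called lower.

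**Figure D4:**
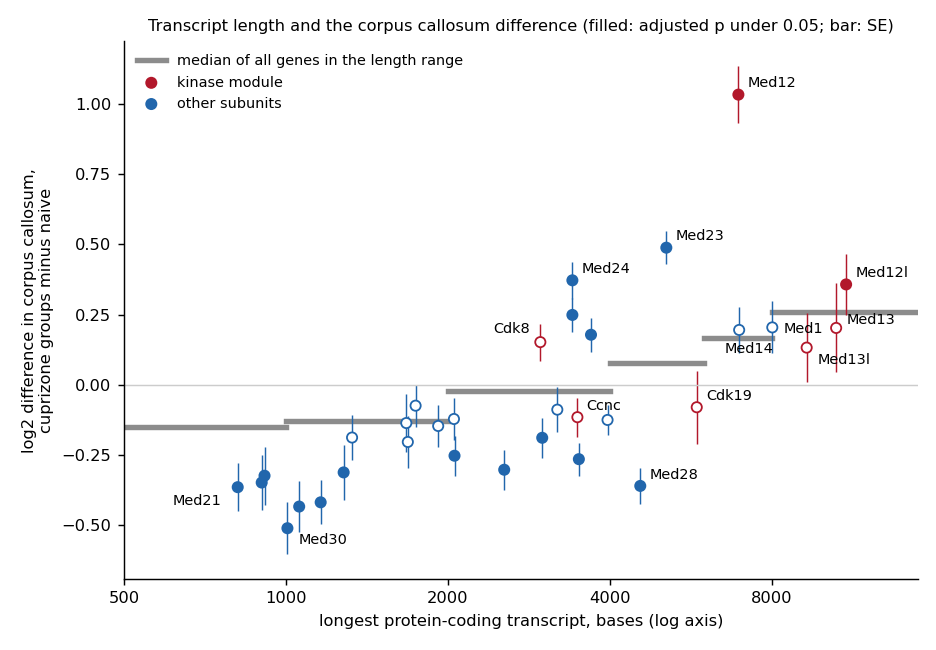
Corpus callosum difference (mean of the CPZ groups minus naive, log2, y axis) of each subunit against the length of its longest protein-coding transcript (x axis, log scale), with kinase module subunits in red and the others in blue. Bars are standard errors, filled points passed an adjusted p of 0.05 and grey lines are medians of all genes in a length range. Long subunits such as Med13, Med13l, Med1 and Med14 lie near the grey lines, and Med12 lies far above its own.

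Against genes of like length, Med12 stood at the 99.3rd percentile of 1218 genes of 6000 to 8000 bases. Med23 and Med24 stood at the 94.4th and 95.4th percentiles of their ranges. Med12l was at the 68.5th, Med13 at the 41.1st and Med13l at the 32.2nd percentile of genes above 8000 bases. Med28, which is 4560 bases long, was at the 2.09th percentile of its range and Med30 at the 3.11th.

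With each library corrected for transcript length and GC content, 4 subunits were higher in the treated corpus callosum, where 10.5% of all genes were, and 9 were lower, where 14% were. Med12 (0.82 ± 0.11, limma adjusted p = 3.92e-06), Med23 (0.38 ± 0.06), Med24 (0.33 ± 0.06) and Med15 (0.20 ± 0.06) were the 4. Med12l differed by 0.07 and was no longer called (limma adjusted p = 0.493). The kinase module median was -0.06 after the correction and that of the 26 others -0.13. The lower subunits were led by Med28 (-0.44 ± 0.08), Med30 (-0.32 ± 0.07) and Med22 (-0.32 ± 0.05). Med10, Med11, Med21 and Med29 were no longer called, and Med17, the central head subunit, was called only after the correction (-0.17 ± 0.06).

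RNAs kept in the nucleus were compared in the same libraries, where 13.7% of all genes were higher and 14.5% lower in the treated corpus callosum. Of 8 such RNAs, 7 were higher and 0 lower in the treated corpus callosum, with a median difference of 1.05, and their mean level was 0.26 to 0.65 in CPZ libraries, against -0.71 to -0.27 in naive ones. Their part in the subunit differences was not tested. Cell type markers moved less. Of 15 markers of mature oligodendrocytes, 2 were lower. Of 12 neuronal markers 1 was higher and 1 lower, of 8 microglial markers 1 was higher and 1 lower, and of 7 astrocyte markers none was called. The mean oligodendrocyte level was -0.30 to -0.22 at 12 wk, 0.72 to 1.35 at 12+4 wk, 0.44 to 1.08 at 12+8 wk and 0.99 to 1.28 at 12+12 wk, with 0.37 to 1.45 in naive. It was low at 12 wk and lay within the wide naive range at 12+4 wk. The Med12 difference was 1.03 at 12 wk and 1.09 at 12+12 wk. Its relation to oligodendrocyte content was not tested.

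The partners of Mediator in transcription split in the same comparison, where 13.7% of all genes were higher and 14.5% lower. Of 13 RNA polymerase II subunits, 9 were lower and none higher (median -0.35), led by Polr2k (-0.56), Polr2f (-0.52) and Polr2h (-0.41). Of 31 genes of the general transcription factors, 15 were lower and 5 higher (median -0.11), with Gtf2a1 (-0.46), Gtf2h5 (-0.42) and Taf7 (-0.42) at the low end. Of 19 elongation kinases and partners, 7 were higher and 4 lower (median 0.05). The P-TEFb cyclins Ccnt1 (0.66) and Ccnt2 (0.52) and the elongation factor Supt5 (0.42) rose most. Of 12 enhancer cofactors, 4 were higher and none lower (median 0.25), namely the acetyltransferases Crebbp (0.43) and Ep300 (0.41), the cohesin loader Nipbl (0.30) and the coactivator Ncoa6 (0.24). In the hippocampus and cortex limma called no gene of these 4 lists, where it called 0% and 0.0704% of all genes. The part of transcript length in the differences of these lists was not tested.

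Naive regions were compared to see how the subunits differ without CPZ. In naive corpus callosum against naive cortex, 9 subunits were higher (21.7% of all genes) and 7 were lower (21.4%). Of the kinase module, Med12l (-0.50 ± 0.12), Med13 (-0.55 ± 0.18) and Med13l (-0.49 ± 0.14) were lower, with Med1 (-0.71 ± 0.11), Med14 (-0.64 ± 0.09), Med23 (-0.39 ± 0.07) and Med15 (-0.18 ± 0.07). Med29 (0.84 ± 0.11) and Med31 (0.63 ± 0.09) were the highest. Med12 differed by -0.26, Cdk8 by -0.02, Cdk19 by -0.01 and Ccnc by -0.01, and none of the 4 was called. In naive hippocampus against naive cortex, 9 were higher (20.9%) and 6 lower (19.7%), with Cdk19 (-0.64 ± 0.15) and Med1 (-0.61 ± 0.11) at the low end and Med29 (0.78 ± 0.11) at the high end. Without the hippocampus libraries of mixed sex-linked genes 5 were higher (15.1% of all genes) and 3 lower (13.6%), with Cdk19 at -0.67, Med1 at -0.58 and Med29 at 0.77. In naive corpus callosum against naive hippocampus, 2 were higher (8.89%), Cdk19 (0.63 ± 0.16) and Med30 (0.39 ± 0.11), and 2 were lower (8.84%), Med14 (-0.29 ± 0.10) and Med15 (-0.22 ± 0.07). Without those libraries Cdk19 (0.66) and Med30 (0.45) were again called (5.98% of all genes were higher), and Med14 (-0.31) and Med15 (-0.27) were not (6.29% were lower). According to the methods, the cortex was sequenced with shorter reads on another instrument than the other 2 regions, so region and sequencing cannot be told apart against the cortex. After the length and GC correction no kinase module subunit was called between naive corpus callosum and naive cortex. Of the other subunits, 6 were then higher (18.5% of all genes) and 6 lower (17.4%).

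In the acute corpus callosum all 33 subunits were expressed, with mean levels of 5.53 (Med18) to 10.2 (Med24) on the log2 scale. The group of each acute library was taken from the study's own table of the same values under group names. The sex-linked genes matched the sex given in 6 of 7 libraries under that assignment and in 2 of 7 under the sample labels. The labels tie the same columns to other groups, so every acute result below depends on that choice, and with the label assignment limma called no subunit in any acute comparison. Replicate 1 of 5+1 wk stood apart. Its median absolute deviation from the gene medians was 0.61, against 0.06 to 0.20 in the other 6 libraries, and its deviations followed transcript GC content (Spearman rho 0.87 over 13674 genes). Among the 33 subunits its difference from the naive library ran from -2.74 (Med21) to 1.17 (Med25), with a rho of 0.89 with GC content. Acute results that use it are given with and without it.

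**Figure D5:**
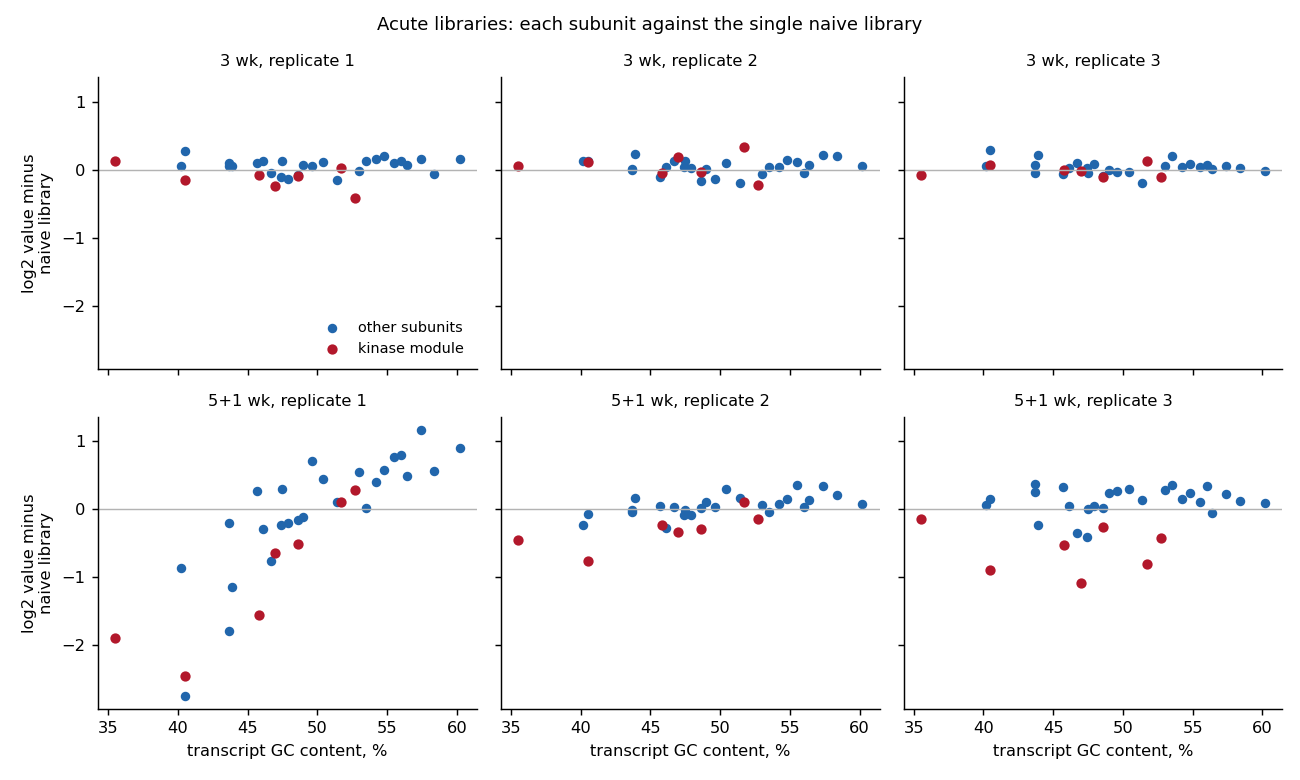
Log2 value of each of the 33 subunits minus its value in the single naive acute library (y axis) against transcript GC content in percent (x axis), for the 3 libraries of 3 wk and the 3 of 5+1 wk. Red points are kinase module subunits and blue points the others. The 3 wk points lie between -0.41 and 0.33, and those of 5+1 wk replicate 1 run from -2.74 at low GC to 1.17 at high GC.

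At 3 wk no subunit was called against naive, and the 33 differences ran from -0.25 (Med12) to 0.23 (Med21). Limma called 0% of the 14536 genes tested, and 0 subunits had an unadjusted p below 0.05. Med12 read 8.29, 8.48 and 8.60 at 3 wk and 8.98, 8.57 and 8.29 at 5+1 wk, against 8.70 in the naive library, so none of the 3 wk libraries reached the naive level. With the label assignment the 3 wk difference of Med12 was 0.40 and not called. At 5+1 wk limma called 0.00688% of all genes against naive and 0% against 3 wk, and no subunit in either, with 0 and 3 subunits at an unadjusted p below 0.05. All 7 kinase module subunits were below naive at 5+1 wk (median -0.69), while 17 of the other 26 were above it (median 0.13). Without replicate 1 the 7 were again below naive, with a median of -0.35, and 20 of the other 26 were above. Of all genes, 49.4% lay below naive at 5+1 wk, and 48.1% without replicate 1. GC content moved with this split in the group mean. The 5+1 wk difference from naive had a Spearman rho with GC content of 0.79 over all genes and 0.81 over the subunits. By library, the rho over the subunits was 0.89 in replicate 1, 0.65 in replicate 2 and only 0.24 in replicate 3. After the length and GC correction 3 of the 7 were above naive, with a median of -0.04, and the median of the other 26 was -0.01.

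Med13 was the subunit that was lowest at 5+1 wk. It read 7.32, 9.01 and 8.87 at 5+1 wk and 9.62, 9.88 and 9.83 at 3 wk, against 9.76 in the naive library. All 3 libraries of 5+1 wk lay below the others, and replicate 1 was far below its own group. Against 3 wk the difference was -1.38 ± 0.43 (limma adjusted p = 0.180), and without replicate 1 it was -0.84 ± 0.11 (limma adjusted p = 0.0217). After the length and GC correction of all 7 libraries it was -0.25 ± 0.09 (limma adjusted p = 0.200), and with the label assignment 0.21, and neither was called. Without that library Med20 was higher (0.33 ± 0.08, limma adjusted p = 0.0464) and no other subunit was called against 3 wk, where 4.53% of all genes were higher and 7.16% lower in the same fit.

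The acute and chronic effects in the corpus callosum were compared in one fit, as the 3 wk difference from the acute naive library minus the 12 wk difference from the chronic naive libraries. The tables were normalized separately, so only differences within a table entered. According to the methods, the acute libraries were sequenced with shorter reads on another instrument than the chronic corpus callosum. The naive mice were 2 months old in the acute paradigm and 8 months old in the chronic one. Paradigm, sequencing and age of the controls therefore cannot be told apart here. Of 33 subunits 2 were lower, where 1.05% of 13947 genes were, and none was higher, where 2.82% were. Med12 was lower by -1.28 ± 0.26 (limma adjusted p = 0.00235), from -0.25 at 3 wk and 1.03 at 12 wk. Med23 was lower by -0.61 ± 0.15 (limma adjusted p = 0.0129), from -0.01 at 3 wk and 0.60 at 12 wk. Without 5+1 wk replicate 1, which enters only the estimate of spread, 2 subunits were higher, Med21 (0.66, limma adjusted p = 0.0239) and Med31 (0.56, limma adjusted p = 0.0444), and Med12 and Med23 were again lower, with 5.87% of all genes higher and 3.43% lower. The acute side rests on 1 naive library. With the label assignment of the acute libraries neither difference was called (Med12 -0.63, limma adjusted p = 0.482).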

How the data were processed

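Bulk RNA was sequenced from 47 dissected tissue samples (7 acute, 40 chronic). Per the submitters' processing notes reads were aligned with TopHat2 2.0.13 and values made with DESeq2; the methods name GRCm38. The authors deposited normalized log2 values, centred per gene in the chronic tables, with no counts. Labels and methods disagree on read type and on whether the kit keeps strand. Acute columns were matched to groups through identical values in the study's table. From each table, 27 rows with names turned into dates or given more than once were left out.

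In the chronic tables a gene entered the fit unless more than 10 of its 40 values equalled its minimum, and in the acute table if its linear mean was at least 10. One limma 3.58.1 fit (R 4.3.3) of 40 libraries by group, and one of the 7 acute libraries with an intensity trend, gave differences ± SE, with p-values adjusted over all genes. P-values rest on the spread between libraries within groups, which the chronic fit pooled over all regions. They do not measure the spread between mice of a single region. Lengths and GC content came from GENCODE vM21, and covered 97.1% of chronic and 94.1% of acute genes tested. The length and GC correction was a loess (span 0.3) of each library's deviations. Both fits were tested on simulated data. Every kinase module subunit was named; of the others, those called in the corpus callosum and up to 3 per module with the largest difference elsewhere. The members, lists and tests were chosen with earlier results of these data known. Alternatives were other filters, scalings, variance models, covariates, a replicate block and leaving out libraries.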

Additional observations from a re-analysis of the deposited data

Results flagged for a closer look

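The difference in CPZ effect between regions, tested as an interaction, passed for 11 subunits between corpus callosum and hippocampus and for 6 between corpus callosum and cortex. Of all genes, 7.09% were higher and 6.25% lower against the hippocampus, and 5.38% and 2.98% against the cortex. Against the hippocampus, the corpus callosum effect was higher by 1.04 for Med12, 0.50 for Med23, 0.41 for Med24 and 0.26 for Med15. It was lower for Med30 (-0.56), Med6 (-0.44), Med31 (-0.41), Med21 (-0.38), Med28 (-0.36), Med7 (-0.35) and Med22 (-0.26). Against the cortex it was higher by 0.84 for Med12, 0.39 for Med23 and 0.38 for Med24, and lower for Med30 (-0.40), Med31 (-0.38) and Med28 (-0.28). Without the hippocampus libraries of mixed sex-linked genes, no lower call was left against either region, and most calls against the hippocampus were lost.

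The acute effect at 3 wk was lower than the chronic effect at 12 wk by -1.28 for Med12 and -0.61 for Med23. The acute side rests on 1 naive library. With the label assignment of the acute libraries the differences were -0.63 and -0.55, and neither was called.

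In the 4 naive cortex libraries, the only group large enough to look for a single library apart, 1 of 33 subunits had one. Med8, a head subunit, read 0.22 in replicate 2. Chance flags about 1 group in 20.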

How the results depend on the processing

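In the corpus callosum, the counts of 6 higher and 12 lower subunits stayed within 1.5 times under every alternative run, and the Med12 difference was called under all 24, at 0.82 to 1.18. As single libraries were left out, the higher count was 4 to 8, the lower count 9 to 12 and the Med12 difference 0.90 to 1.18. The same fits called 1634 to 2314 of 17054 genes higher and 1740 to 2480 lower. In the hippocampus both counts stayed at 0, and in the cortex both were 0 to 1. Against the hippocampus, leaving out single libraries gave 3 to 5 higher and 3 to 7 lower (599 to 1202 and 384 to 1050 of 17054 genes). Against the cortex it gave 3 to 4 higher and 0 to 5 lower (550 to 1306 and 256 to 994 of 17054 genes). The hippocampus comparison moved with array weights (7 higher, 14 lower; 14.4% and 14.2% of all genes), without the libraries of mixed sex-linked genes (2 higher, 0 lower; 0.223% and 0.0117% of all genes) and with the length and GC correction (3 lower). The cortex comparison moved with quantile normalization (7 lower) and without the mixed libraries (0 lower). Over all genes, 5.56% were lower against the hippocampus with that correction, and 1260 of 17054 against the cortex with quantile normalization. With the replicate block, 3 subunits were lower against the hippocampus (569 of all genes) and 0 against the cortex (195 of all genes). With the block and the length and GC correction together, these were 2 (582 of all genes) and 1 (401 of all genes). The cause was not tested. Residuals of same-numbered libraries correlated above 0.1 in 8 of 21 corpus callosum pairs, 6 of 23 hippocampus pairs and 6 of 26 cortex pairs. Differently numbered libraries did so in 14 of 36, 12 of 44 and 15 of 63 pairs, in that order. Replicate numbers thus gave no sign of pairing within a region, and pairs across regions were not compared. The block changed no call of Med12. Of the other subunits called in the corpus callosum, Med26 and Med25 were lost most often. The 2 joint acute and chronic alternatives were chosen after seeing the data. Depth is unknown, so no limit that it sets can be given.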
